A study of Mus musculus with 31 samples.

Results

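The licensing of DNA replication was followed through its genes in single 2-cell mouse embryos. The members were chosen by name, as the minichromosome maintenance genes Mcm2 to Mcm7, the origin recognition gene Orc1, the loading factors Cdc6 and Cdt1, and Gmnn, the gene of the Cdt1 inhibitor geminin. Of these 10 names, 9 were matched to rows among the 20544 gene symbols of the count table, and Gmnn was not analysed here. The embryos were wild type and came from in vitro fertilization of oocytes of superovulated CD1 females, 8 to 10 weeks old, with sperm of C57BL/6J males, 12 to 14 weeks old. In 16 control-generated embryos the sperm had been kept in medium with glucose and pyruvate throughout. In 15 SER-generated embryos the sperm had undergone sperm energy restriction and recovery (SER), in which both nutrients were withheld until motility was lost and then given back. The treatment was applied to sperm alone, all embryos were cultured alike and collected 32 h post-insemination (HPI), and each was sequenced as a Smart-seq3 library of its own. A library holds both cells of an embryo, and its counts do not tell RNA inherited from the oocyte from RNA made by the embryo.

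Licensing marks the places where a chromosome may start replication. The origin recognition complex binds the DNA, Cdc6 and Cdt1 join it, and together they load rings of Mcm2 to Mcm7, the helicase that later unwinds the fork. Geminin and the destruction of Cdt1 keep origins from being loaded again in the same cycle. In the mouse 2-cell embryo this machinery is first supplied by oocyte transcripts and proteins, and the embryo's own genome takes over during the same stage, in the major wave of activation.

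Library totals ran from 532945 to 2085222 counts in control-generated embryos (median 955806.5) and from 642321 to 3088396 in SER-generated embryos (median 1375557). All 12 oocyte genes, all 12 genes of the 2-cell transcription burst and all 10 nucleolar genes of the major activation that were listed as markers had counts. Of 10 cumulus cell genes and 6 sperm genes none passed the filter on low counts, and their summed level reached at most 229 CPM (counts scaled to a common library total) for cumulus and 24.1 CPM for sperm genes in any embryo. Control embryo 4 and SER embryo 15 stood apart from the other 29 over the whole transcriptome. On the first principal component they lay at 163 and 181, while the others lay between −72.6 and 57.9. They had the highest oocyte scores and the lowest scores for the 2-cell and nucleolar genes, a score being the mean over a list of each gene's standardized log2 level. Results are therefore given with and without these 2 embryos. The embryos came from several independent batches, and the labels do not name the batch of an embryo, so batch and group could not be separated.

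The transcripts of all 9 genes were present in every embryo, with at least 1 count each, and all 9 passed the filter. A gene's level in CPM is a relative measure, in which less of a transcript and more of everything else cannot be told apart. To compare genes with each other, levels were divided by exon length (CPM per kb). On this scale Cdt1, the gene of the loading factor, was the highest at 101 ± 47.0 CPM per kb (SD, n = 31), followed by Mcm6 at 71.6 ± 33.3. Mcm5 at 44.2 ± 18.1, Mcm3 at 40.5 ± 20.5 and Mcm2 at 39.4 ± 16.5 CPM per kb formed a middle group. Orc1 at 27.8 ± 15.5, Mcm4 at 27.3 ± 20.0, Mcm7 at 19.4 ± 7.53 and Cdc6 at 18.2 ± 10.6 CPM per kb were the lowest. Cdt1 was above Mcm6 in 26 of 31 embryos and Mcm6 above Mcm5 in 27 of 31. Further down the order neighbours changed places in 11 to 15 of the 31 embryos, and no mean log2 difference between neighbours exceeded its SD over embryos. Proteins of the helicase ring assemble in equal number, while the mean transcript levels of its subunits ran from 19.4 CPM per kb for Mcm7 to 71.6 for Mcm6. Smart-seq3 combines 5′ reads, which do not grow with transcript length, and internal reads, which do, so the division by length is approximate.

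**Figure D1:**
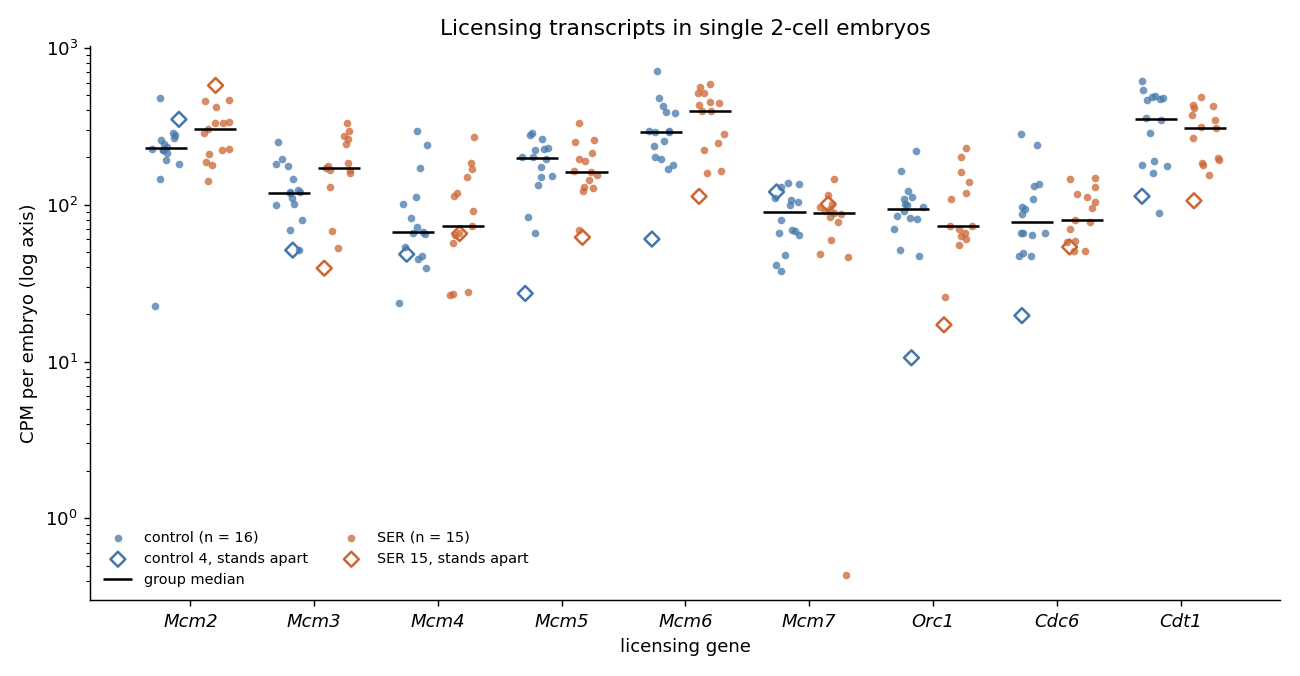
Level of the 9 licensing genes in each embryo, in CPM on a log axis. Each point is an embryo (blue, 16 control; orange, 15 SER), black bars are group medians, and open diamonds are the 2 embryos that stand apart. The groups overlap for every gene, and a single SER embryo lies at 0.435 CPM for Mcm7.

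SER- and control-generated embryos were compared to ask whether the sperm treatment changed the licensing genes of the embryo. No member passed the threshold of an adjusted p under 0.1 (edgeR's quasi-likelihood test, Benjamini-Hochberg adjustment over 8571 genes), and neither did any other gene, so the background was 0%. At an unadjusted p under 0.05 there were 491 genes (5.73%), 187 with a fold change above 0 (2.18%) and 304 with one below it (3.55%), and 0 members. No member was called either without a filter, where 504 of 17803 genes passed (2.83%), or with counts thinned to the smallest library, where 5 of 6989 did (0.0715%), or with 3 clusters of embryos estimated from the data as a covariate, where 41 of 8571 did (0.478%). Of the members 5 had a fold change above 0 and 4 below it, with a median log2 fold change of 0.01, beside 0.02 over all genes tested. For every member the 2 groups overlapped.

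Among the subunits of the Mcm ring, Mcm2 (chr6:88883474-88898780, GRCm38, minus strand), which forms the gate of the ring with Mcm5, ran from 22.4 to 479 CPM in control-generated embryos (median 229.7) and from 141 to 576 CPM in SER-generated embryos (median 305). In SER-generated embryos 9 of 15 values exceeded the control median, and the lowest value of all was that of control embryo 3, with 23 counts. The log2 fold change, SER minus control, was 0.38 (SE 0.24, adjusted p = 0.928 by edgeR). Mcm3 (chr1:20802968-20820312, minus strand) ran from 51.3 to 249.9 CPM in control-generated embryos (median 119) and from 39.3 to 333 CPM in SER-generated embryos (median 171). Of the SER-generated embryos 12 of 15 were above the control median, and 4 of 16 control-generated embryos were above the SER median. It had the largest fold change of the members, 0.49 on the log2 scale (SE 0.27, unadjusted p = 0.0739, adjusted p = 0.869 by edgeR), from a mean of 125 ± 54.4 CPM (SD, n = 16) to 181 ± 88.1 CPM (SD, n = 15). Mcm6 (chr1:128331590-128359664, minus strand) ran from 60.4 to 711 CPM in control-generated embryos (median 290.4) and from 113 to 585 CPM in SER-generated embryos (median 398). The difference was 0.24 on the log2 scale (SE 0.26, adjusted p = 0.958 by edgeR). The call of Mcm3 and Mcm6 depended on the test. The limma voom fit gave each embryo an estimated quality weight, and it called 848 of 8571 genes (9.89%). With limma voom the log2 fold change was 0.79 for Mcm3 (SE 0.20, adjusted p = 0.0205) and 0.52 for Mcm6 (SE 0.18, adjusted p = 0.0857), both higher in SER-generated embryos. With DESeq2, which called 46 of 7178 genes (0.641%), their adjusted p was 0.688 and 0.902.

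The other ring subunits had fold changes smaller than their standard errors. Mcm4 (chr16:15623897-15637400, minus strand) ran from 23.5 to 296 CPM in control-generated embryos (median 66.7) and from 26.5 to 271 CPM in SER-generated embryos (median 72.7), with a log2 fold change of 0.01 (SE 0.36). Mcm5 (chr8:75109569-75128439, plus strand) ran from 27.2 to 288 CPM in control-generated embryos (median 199) and from 61.9 to 329.9 CPM in SER-generated embryos (median 162), with a log2 fold change of −0.08 (SE 0.25). Mcm7 (chr5:138164583-138172422, minus strand) ran from 38.0 to 138 CPM in control-generated embryos (median 89.7) and from 0.435 to 147 CPM in SER-generated embryos (median 88.8). The low end was SER embryo 13, with 1 count of Mcm7 in a library of 2300140, where the other 30 embryos had 30 to 271 counts. This embryo also had the fewest detected genes of all, 10455. With this embryo the log2 fold change was −0.13 (SE 0.32) and without it −0.034 (SE 0.22), and the SER mean moved to 88.4 ± 26.1 CPM (SD, n = 14). Exons of Mcm7 overlap those of 2 genes with rows on the opposite strand, Ap4m1 over 321 bases (7.25% of the Mcm7 exon length) and Cops6 over 64 bases. In SER embryo 13 these genes had 1 and 117 counts. Whether the counting used strand was not stated, so reads of the shared bases cannot be assigned to Mcm7 with certainty.

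For the factors that load the ring the fold changes were also smaller than their standard errors. Orc1 (chr4:108579423-108614833, plus strand), the origin recognition subunit whose level changes with the cell cycle, ran from 10.6 to 219 CPM in control-generated embryos (median 94.0) and from 17.1 to 229 CPM in SER-generated embryos (median 72.9). Its log2 fold change was 0.03 (SE 0.31), although the SER median was the lower and 6 of 15 SER-generated embryos were above the control median. Orc1 shares 376 exon bases with Gm12743, a transcript of the opposite strand that was not analysed here. Cdc6 (chr11:98907801-98923940, plus strand) ran from 19.6 to 281 CPM in control-generated embryos (median 77.0) and from 50.4 to 147 CPM in SER-generated embryos (median 80.4), with a log2 fold change of −0.18 (SE 0.28). Cdt1 (chr8:122568015-122573554, plus strand) ran from 88.8 to 615 CPM in control-generated embryos (median 350.5) and from 106 to 484 CPM in SER-generated embryos (median 308). Its log2 fold change was −0.22 (SE 0.26). The adjusted p of these genes and of Mcm4, Mcm5 and Mcm7 was 0.961 or higher by edgeR. Without the 2 embryos that stand apart, the fold changes of all 9 members kept their sign except that of Mcm4, which was at −0.00219, and their adjusted p lay between 0.629 and 0.999.

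**Figure D2:**
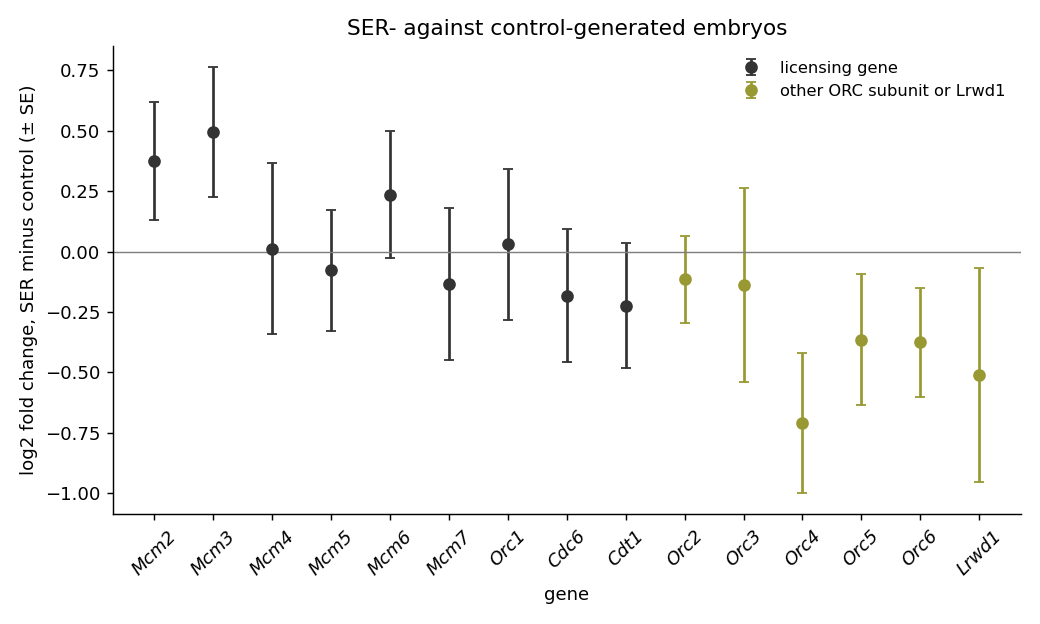
Log2 fold change, SER minus control, with its standard error, for the 9 licensing genes (black) and the 6 other genes of the origin recognition list (olive). Mcm3 is the highest of the licensing genes at 0.49, the licensing genes lie on both sides of 0, and the 6 origin recognition genes lie below it, with Orc4 the lowest at −0.71.

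The 7 lists of other replication genes were compared in the same way, and of their 86 genes 79 were tested. A fold change above 0 was found for 35 (44.3%, beside 52.7% of all genes tested) and below 0 for 44. Of the 79, 0 were called and 10 were at an unadjusted p under 0.05, beside 491 of 8571 genes tested (5.73%). The subunits Orc2 to Orc6 and Lrwd1, a protein that binds the origin recognition complex, had fold changes below 0 in 6 of 6 cases. Among all genes tested it was 4056 of 8571. The median of the 6 genes was −0.37 on the log2 scale, beside 0.02 for all genes. Of these Orc4 had the smallest p, with means of 97.7 and 62.4 CPM in control- and SER-generated embryos (−0.71 on the log2 scale, SE 0.29, unadjusted p = 0.0189, adjusted p = 0.752 by edgeR). Orc1, which is a member, was at 0.03. The median of the 6 genes lay between −0.42 and −0.25 when any single embryo was left out, and at −0.43 without the 2 embryos that stand apart. Among 13 genes of helicase activation 7 had a fold change above 0 and 6 below, and Topbp1, a scaffold needed to fire origins, had the smallest p (log2 fold change 0.68, SE 0.24, adjusted p = 0.607). Among 26 tested genes of the replication fork the split was 14 and 12, and Rfc3, a subunit of the clamp loader, had the smallest p (1.31, SE 0.51, adjusted p = 0.731). Among 11 genes of the turnover of licensing factors the split was 5 and 6, and Cks1b, a cofactor of the Skp2 ligase, had the smallest p of all 79 genes (−1.01, SE 0.30, unadjusted p = 0.00157, adjusted p = 0.403). The other Mcm family genes had 3 above and 2 below with Kat7, the acetylase that aids loading, at 0.48 (SE 0.25, adjusted p = 0.869). The E2F and pocket protein genes had 3 above and 7 below with Tfdp2, a partner of the E2F factors, at 0.41 (SE 0.26, adjusted p = 0.918). The genes of nucleotide supply had 3 above and 5 below with Tyms, the thymidylate synthase gene, at −0.56 (SE 0.43, adjusted p = 0.935).

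The licensing genes varied between embryos, and for all but Mcm7 the SD of the log2 level lay below the median of all genes tested. From the lowest to the highest embryo the level spanned 6.93-fold for Cdt1, 8.47-fold for Mcm3, 11.8-fold for Mcm6, 12.1-fold for Mcm5, 12.6-fold for Mcm4, 14.3-fold for Cdc6, 21.7-fold for Orc1 and 25.7-fold for Mcm2. No span is given for Mcm7, whose lowest embryo had 1 count. Several of these spans rested on the lowest embryo. Without control embryo 4, the lowest for these genes, the span was 13.4-fold for Orc1, 6.29-fold for Mcm6, 5.95-fold for Cdc6 and 5.33-fold for Mcm5, and without control embryo 3 that of Mcm2 was 4.09-fold. Without both embryos that stand apart it was 8.85-fold for Orc1, 4.48-fold for Mcm6 and 4.97-fold for Mcm5. The SD of the log2 level over 31 embryos was 0.73 to 1.11 in the members, beside a median of 1.06 over all genes tested. Within the groups 5 of 9 members had the smaller SD in SER-generated embryos, beside 54.2% of all genes tested. Without the 2 embryos that stand apart it was 3 of 9, beside 60.5% of all genes. Cdc6 had an SD of 0.89 in control- and 0.54 in SER-generated embryos, and control embryos 8 and 2 were the highest for it, at 281 and 241 CPM.

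Across embryos the levels of most members were positively related. Over all 31 embryos the 36 pairs of members had a median Spearman's rho of 0.48, with 17 pairs over 0.5 (47.2%), beside 5.68% of all pairs of tested genes. Mcm2 was set apart after its values were seen. The 28 pairs without it had a median rho of 0.55 and a range of 0.11 to 0.79, and all 17 pairs over 0.5 were among them. The strongest pair was Mcm3 and Mcm6 (r = 0.79, rho = 0.79, n = 31), 0.70 in rho within control- and 0.90 within SER-generated embryos. Mcm5 went with Orc1 (r = 0.79, rho = 0.78) and with Cdt1 (r = 0.72, rho = 0.72), and Mcm6 with Cdc6 (r = 0.77, rho = 0.74). Over all 31 embryos Mcm7 was the least tied of the 8 other members, with rho of 0.11 to 0.56. Without the 2 embryos that stand apart its pairs were at 0.27 to 0.64, and the lowest of the 28 pairs was Orc1 with Cdc6 at 0.21. The 8 pairs with Mcm2 had a rho between −0.39 and 0.15, of which 7 were below 0. Without the 2 embryos that stand apart 16 of 28 pairs were over 0.5 and 7 of the 8 pairs with Mcm2 below 0, and the median rho of the 8 pairs with Mcm2 moved from −0.24 to −0.09. These values describe the embryos, whose levels share a library, its depth and its scaling. Against the log2 library total the rho of the members was −0.05 to 0.17 over all 31 embryos. Within control-generated embryos it was −0.06 (Mcm2) to 0.44 (Mcm6), and within SER-generated embryos −0.30 (Mcm6) to −0.004 (Mcm2). Over all 31 embryos the rho with the number of genes detected was 0.46 for Cdt1, 0.40 for Orc1 and 0.38 for Mcm5. It was 0.36 for Mcm6 and −0.35 for Mcm2, beside a median of 0.06 over all genes tested. Within SER-generated embryos these 5 values were 0.68, 0.63, 0.50, 0.59 and −0.49, and within control-generated embryos 0.42, 0.13, 0.32, 0.07 and −0.17. The part of library size and of the number of detected genes in the shared pattern was not tested.

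**Figure D3:**
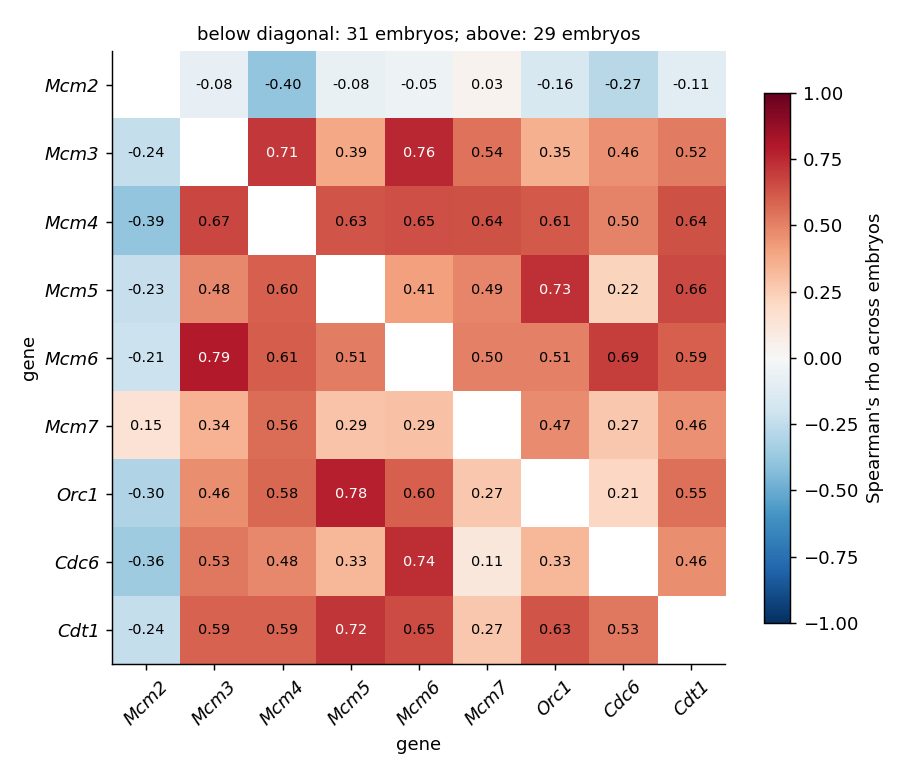
Spearman's rho of the log2 level between each pair of licensing genes, below the diagonal over 31 embryos and above it over 29 embryos, without the 2 that stand apart; red is above 0 and blue below. All pairs without Mcm2 are above 0, with Mcm3 and Mcm6 at 0.79, while 7 of 8 values in the Mcm2 column are below 0.

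In the 2 embryos that stand apart, the members took different directions. Orc1 was at 10.6 CPM in control embryo 4 and 17.1 CPM in SER embryo 15, the lowest values of all, where the other 29 had a median of 91.1 CPM and a minimum of 25.9. Mcm5 was at 27.2 and 61.9 CPM, again the lowest, beside a median of 190.3 CPM. Mcm6 was at 60.4 and 113 CPM, below the 159 to 711 CPM of the others. Mcm2 lay on the other side, with 350.0 CPM in control embryo 4 and 576 CPM in SER embryo 15, the highest value of all, where the other 29 had a median of 233 CPM. Mcm7 was at 121 and 101 CPM, inside the range of the others and above their median of 87.7 CPM. In control embryo 4 the counts of the ring subunits were 232 for Mcm2, 80 for Mcm7, 40 for Mcm6 and 18 for Mcm5.

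All 31 embryos were then ordered by the nucleolar genes of the major activation (Nop2, Nop56, Nop58, Fbl, Ncl, Npm1, Bop1, Pes1, Wdr12 and Ddx21), most of which serve ribosome assembly. Mcm6 followed this score most closely (r = 0.87, rho = 0.86, n = 31), and only 0.583% of tested genes had a higher rho. Mcm3 (r = 0.80, rho = 0.81), Cdt1 (r = 0.79, rho = 0.79), Mcm4 (r = 0.61, rho = 0.72), Mcm5 (r = 0.75, rho = 0.68), Orc1 (r = 0.77, rho = 0.68), Cdc6 (r = 0.63, rho = 0.62) and Mcm7 (r = 0.30, rho = 0.50) came next. Mcm2 was at r = −0.13 and rho = −0.22. Thus 8 of 9 members had a rho over 0.5, beside 1751 of 8571 tested genes (20.4%). Without the 2 embryos that stand apart, which are also the 2 farthest from the median of the score, the values were r = 0.79 and rho = 0.83 for Mcm6, r = 0.60 and rho = 0.76 for Mcm7, and r = 0.16 and rho = −0.07 for Mcm2, and 8 of 9 members stayed over 0.5, beside 17.1% of tested genes. Within control- and within SER-generated embryos the rho of Mcm6 was 0.78 and 0.92 and that of Mcm2 −0.25 and −0.40. With the genes of the 2-cell burst, such as Zscan4 and Usp17l genes, the rho of the members was lower, −0.14 to 0.41. The background was lower too, with 3.00% of tested genes over 0.5 for the burst score. The members had a median rho of 0.36 with it, beside −0.004 over all genes tested. Tested genes with a higher rho made up 7.30% (Mcm4) to 19.5% (Cdt1), except for Mcm7 (63.9%) and Mcm2 (68.1%). Without the 2 embryos that stand apart the members' median was 0.22. With the oocyte genes the rho of the members was −0.45 to −0.07, where 4375 of 8571 tested genes were below 0. Without the 2 embryos that stand apart it was −0.34 to 0.06.

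**Figure D4:**
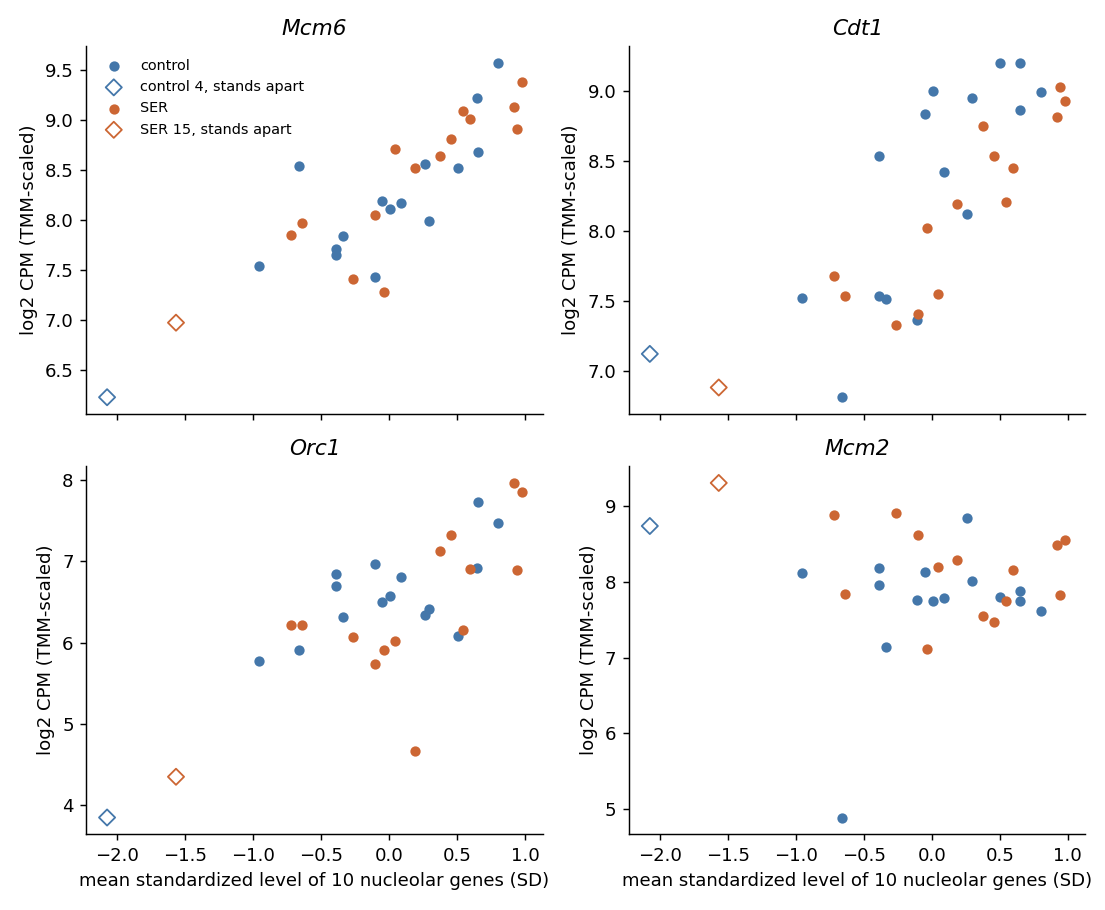
Log2 level of Mcm6, Cdt1, Orc1 and Mcm2 in each embryo (CPM on TMM-scaled library sizes) against the mean standardized level of 10 nucleolar genes in SD; blue, control; orange, SER; open diamonds, the 2 embryos that stand apart. Mcm6 (rho = 0.86), Cdt1 (0.79) and Orc1 (0.68) rise along the axis, and Mcm2 (−0.22) does not.

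The other genes of the origin recognition complex were spread along this axis. The 6 of them had a median rho of −0.09 with the nucleolar score and a range of −0.65 (Orc5) to 0.47 (Lrwd1), beside 0.68 for Orc1, and the difference was not tested. Lrwd1 (r = 0.66) and, within SER-generated embryos, Orc6 (rho = 0.65, beside 0.68 for Orc1) went the same way as Orc1, while Orc6 was at a rho of 0.24 within control-generated embryos. The median rho was 0.28 in the other Mcm family list, 0.30 in the helicase activation list, 0.13 at the replication fork, −0.06 in the turnover list, −0.43 in the E2F list and 0.18 in the nucleotide supply list. Over 0.5 were 1 of 5 other Mcm family genes, 3 of 13 for helicase activation and 6 of 26 at the fork. It was 2 of 11 for turnover, 0 of 10 for E2F and 1 of 8 for nucleotide supply. The genes named next were chosen after their values were seen. Mcm10 was at 0.78, and without the 2 embryos that stand apart at 0.85, beside 0.83 for Mcm6. Gins1, of the helicase activation list, was at 0.76. The highest rho of these lists was that of Rpa2, a subunit that coats single-stranded DNA, at 0.85. The lowest were those of E2f5, a repressive E2F factor, at −0.86 and of Ube2d3, a ubiquitin-conjugating enzyme, at −0.79.

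**Figure D5:**
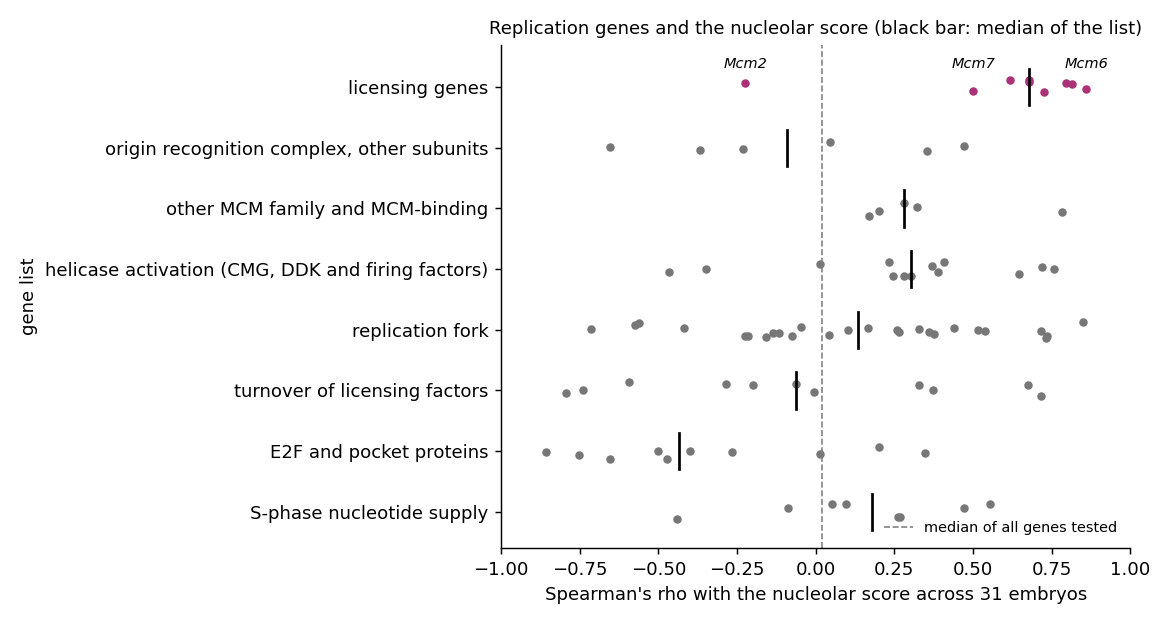
Spearman's rho of each replication gene with the nucleolar score over 31 embryos, by gene list; points are genes, black bars list medians, and the dashed line is the median of all genes tested, 0.02. The licensing genes lie between 0.50 and 0.86 except Mcm2 at −0.22, the 5 genes of the other Mcm family list lie above 0, and the remaining lists spread over both sides of it.

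The tested genes most like the mean standardized level of Mcm2 to Mcm7 over the 31 embryos were Pa2g4 (r = 0.80, rho = 0.93), Tnpo3 (r = 0.65, rho = 0.92), Ccdc25 (r = 0.90, rho = 0.91), Ppat (r = 0.60, rho = 0.91) and Nol11 (r = 0.75, rho = 0.91). For single members the most alike gene was Nob1 for Mcm6 (rho = 0.95), Ccne1, the gene of cyclin E1, for Cdt1 (0.90), Abhd6 for Mcm4 (0.87) and Hsph1 for Mcm3 (0.86). For Orc1 it was Tmem223 (0.82), for Mcm5 Diablo (0.80), for Mcm7 Tpd52l2 (0.79) and for Cdc6 Them4 (0.77). The closest gene to Mcm2 was Ssrp1, the gene of a subunit of the histone chaperone FACT, at r = 0.73 and rho = 0.67, and 0.64 in rho without the 2 embryos that stand apart.

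The promoters of the members were then set side by side. The E2F factors are known regulators of licensing genes in cycling cells, and their sites were searched as the octamers TTTCCCGC, TTTCGCGC, TTTGCCGC and TTTGGCGC on both strands, from 250 bases before to 50 bases after the RefSeq start (GRCm38.p6). Of the 9 members 8 had a promoter entry, and 7 of the 8 held at least 1 octamer, namely Mcm3, Mcm5, Mcm6, Mcm7 (at the first of 2 starts), Orc1, Cdc6 and Cdt1. Mcm2 held none. Over all 32851 promoters 744 held an octamer (2.3%), and among those of tested genes 380 of 8884 did (4.3%). A second motif, CCAAT, searched on both strands of the same windows, was found in 6 of the 8 members, Mcm2 among them, and not in Cdc6 or Cdt1, beside 37.4% of all promoters and 38.7% of those of tested genes. A match of letters is a description and not a site of binding, and its absence from this window says only that these letters are not in it. Mcm6, the member closest to the nucleolar genes, and Mcm2, the member farthest from them, are shown over the 250 bases before their starts, 5′ to 3′ on the gene's strand, with octamer matches in capitals. The first match of Mcm6 joins 2 overlapping octamers on opposite strands.
Mcm6, chr1:128359706-128359955, minus strand: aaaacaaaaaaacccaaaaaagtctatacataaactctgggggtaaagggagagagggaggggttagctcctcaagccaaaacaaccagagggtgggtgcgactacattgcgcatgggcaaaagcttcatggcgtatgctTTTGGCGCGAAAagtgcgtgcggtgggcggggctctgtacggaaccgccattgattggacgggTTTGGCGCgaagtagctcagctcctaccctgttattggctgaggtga
Mcm2, chr6:88898781-88899030, minus strand: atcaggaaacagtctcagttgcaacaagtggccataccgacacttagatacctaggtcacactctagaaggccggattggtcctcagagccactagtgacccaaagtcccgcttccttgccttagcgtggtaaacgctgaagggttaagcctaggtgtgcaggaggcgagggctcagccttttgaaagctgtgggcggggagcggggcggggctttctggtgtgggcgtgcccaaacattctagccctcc

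The matches of the other members are shown in windows of 30 bases on the gene's strand, with 1 match for each gene, to set the octamers beside each other. Those of Mcm3 and Cdt1 lie after the RefSeq start, and the others before it. The gene locations given above are from GENCODE and can start elsewhere. The matches of Mcm7, Orc1 and Cdc6 lie inside those locations.
Mcm3, chr1:20820275-20820304: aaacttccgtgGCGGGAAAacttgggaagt
Mcm5, chr8:75109347-75109376: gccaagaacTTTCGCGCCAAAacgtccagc
Mcm7, chr5:138172030-138172059: aatttcgaaccGCGGGAAAcagggtgtcca
Orc1, chr4:108579416-108579445: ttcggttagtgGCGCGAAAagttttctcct
Cdc6, chr11:98908002-98908031: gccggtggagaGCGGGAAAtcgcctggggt
Cdt1, chr8:122568035-122568064: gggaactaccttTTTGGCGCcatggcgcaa
The octamer at Mcm5 overlaps its neighbour on the opposite strand as at Mcm6, and Mcm3, Mcm7 and Cdc6 hold the same octamer, TTTCCCGC, read from the opposite strand.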

How the data were processed

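RNA from 31 single 2-cell embryos, 16 control- and 15 SER-generated, was sequenced by Smart-seq3. The authors separated 5′ reads with a molecular identifier from internal reads, aligned them with STAR to mm10 and used UMI-tools and Picard against duplicates before merging. featureCounts then gave whole-number counts for each gene, which were deposited without normalization. Versions, annotation and strand setting are not given in the sources used here, and the authors' ComBat-seq correction could not be repeated without batch labels. Internal reads carry no identifier, so depth bounds only the counting error, and p-values measure the spread between embryos. By the study's methods a cauda epididymis was put in control medium and the other in SER medium, so the groups could share males. Which embryos shared a batch, a male or a female is not stated.

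The groups were compared with edgeR 4.0.16 (R 4.3.3), quasi-likelihood test, TMM normalization and Benjamini-Hochberg adjustment with a threshold of 0.1, over the 8571 genes kept by filterByExpr (minimum count 10, minimum total 15) of 17803 with a count. The standard error is the log2 fold change divided by the square root of the F statistic. CPM used the library total. Correlations used log2 CPM on TMM-scaled library sizes with a prior count of 2 and are given without p. Alternatives were DESeq2 size factors, no filter, a stricter filter (10 counts in 15 embryos), DESeq2 1.42.0, limma voom 3.58.1, library size as covariate, 3 estimated clusters of embryos, thinning to 532945 counts, a replicate block, leaving out each embryo, and, added after seeing the data, leaving out both embryos that stand apart. The limma voom fit used a quality weight estimated for each embryo. The scripts were tested on simulated data. No libraries were identical.

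The members and lists were chosen with earlier results of these data known. Genes named beside the members are those of each list with the smallest p or called, the 5 most like the Mcm mean, the most alike gene of each member, and genes with overlapping exons. Rpa2, Mcm10, Gins1, E2f5, Ube2d3, Orc5, Orc6 and Lrwd1 were named after their values were seen. Locations are from GENCODE vM21 (GRCm38), promoters from RefSeq (GRCm38.p6). Plots were drawn with Python.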

Additional observations from a re-analysis of the deposited data

How the results depend on the processing

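edgeR called 0 genes and 0 members, with 491 genes at an unadjusted p under 0.05, and it also called 0 with DESeq2 size factors, the stricter filter, library size as a covariate, and without each embryo in turn (31 fits, lowest 0 and highest 0). The count was 504 without a filter (2.83% of 17803), 46 with DESeq2, 848 with limma voom, 41 with 3 estimated clusters and 5 with thinned counts, and the cause was not tested. Members were called only under limma voom with its embryo weights, Mcm3 and Mcm6. Voom turned Mcm7 to 0.19, Orc1 to −0.030 and Cdc6 to 0.082 on the log2 scale. Mcm4 turned to −0.13 with library size as a covariate and to −0.00219 without both embryos that stand apart, and over single embryos left out it ran from −0.17 to 0.28, as Orc1 did from −0.13 to 0.14. No other member changed sign with a single embryo left out.

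Of 36 pairs of members 17 had a rho over 0.5, and the count was 14 to 18 within groups, with group means removed, with thinned counts, on the library total and without both embryos. The number of members with the smaller SD in SER-generated embryos fell from 5 to 3 without both embryos. Same-numbered embryos deviated together in 8 of 15 pairs (r over 0.1, range −0.37 to 0.49). Their median r was 0.11, beside 0.003 over all pairs of a control- and an SER-generated embryo. Of the 15, 2 were most alike their own number, and the numbers were not read as pairs. Whether the numbers follow the batches was not tested. With the replicate number as a block 0 of 8361 genes were called and Orc1 was at −0.10. Apart from Mcm7 in SER embryo 13, counts of a member were fewest for Orc1 in control embryo 4 (7 counts in a library of 662768). The single count of Mcm7 in SER embryo 13 came from a library above the SER median in total counts. Its 10455 detected genes were the fewest of all embryos, as were its 9536 after thinning.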

Other observations

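Mcm7 was 1 of 18 tested genes that had at most 1 count in a single embryo and at least 30 counts in each of the other 30, and it was the only 1 of them whose low embryo was SER embryo 13.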
